A study of Mus musculus with 2 samples.

Results

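The strong broad sWGA peaks are the regions of the sWGA list on chromosomes 1 to 19 that held at least 18 tags over at least 650 bp. There were 2411 of them, out of 33783 peaks in the whole list, 33200 autosomal peaks and 7065 autosomal peaks of at least 18 tags. A tag is 1 filtered read and the limits on tags and length chose the members, so the members were selected on these measured values, and both are given below as descriptions with no test. The peaks of at least 18 tags are called strong here. They were set against the 844 strong autosomal peaks of at most 400 bp, called compact, and the 3810 of lengths in between, called intermediate.

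Chromatin came from ZHBTc4 F-Oct4, a line of mouse embryonic stem cells that carries Flag-tagged Oct4, and was precipitated 2 times in a row. Both groups went through anti-Flag ChIP first, and in the sWGA group the Flag eluate was then bound to sWGA beads, with release by 0.5 M GlcNAc. The control group went through a second step that the labels name in 3 ways, as an input, as IgG and as agarose beads, and which one it was is not resolved here. Each group had 1 library of this 1 line, 6129874 filtered tags for sWGA and 78351 for the control, so no difference between the groups has a replicate error and no p-value is given. All intervals below are 95% intervals over regions and cover counting error only, and neighbouring regions are not independent of each other. Positions are 1-based mm9 coordinates. No mm9 sequence or annotation was used here, so regions are named by position and not by gene.

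Oct4, encoded by Pou5f1, is a POU-domain factor that binds DNA, often together with Sox2, at promoters and enhancers of pluripotent cells. O-GlcNAc is a single sugar that the enzyme Ogt adds to serines and threonines of nuclear and cytoplasmic proteins and that Oga removes. The lectin sWGA, succinylated wheat germ agglutinin, binds N-acetylglucosamine. Because cross-linked chromatin carries many proteins, the lectin step can retain a fragment through Oct4 or through another modified protein on the same fragment. In ChIP-seq the sheared fragments that cover a single binding site reach to either side of it, so its region can be longer than a single fragment. Several sites close together, or a protein spread along the DNA, can give a wider region still.

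The broad peaks made up 34.1% (33.0 to 35.2, exact interval) of the strong autosomal peaks and held 42.6% of their tags. In all they held 91714 tags, 1.496% of the filtered sWGA library, over 1.94 Mb. The median broad peak was 757 bp long, with quartiles of 698 and 859 bp, and held 32 tags, with quartiles of 24 and 45. By the rule all 2411 were longer than 500 bp, the upper limit of the sonicated fragments in the labels, so this is no finding. Lengths of 1000 bp or more were found in 237 (9.83%) and lengths of 1500 bp or more in 14. At least 100 tags were found in 40 broad peaks and in 1 compact peak. The authors' FDR, obtained with the 2 libraries exchanged, had a median of 24.5% in broad peaks. It was 100% in 418 of them (17.3%), against 4.98% of compact peaks and 2.20% of all autosomal peaks. Over all autosomal peaks the median FDR was 4.43%. In broad peaks the median FDR rose with tags, from 11.2% with 18 to 24 tags to 24.6% with 25 to 39 and 100% with at least 40. At matched tags the broad class was not above the compact one. The shares of broad and compact peaks at 100% were 0% and 0% with 18 to 24 tags and 0% and 5.29% with 25 to 39. With at least 40 tags they were 52.3% and 76.9%, the latter of 39 compact peaks. The FDR was 100% for 17 of the 19 members with the most tags on their autosome.

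**Figure D1:**
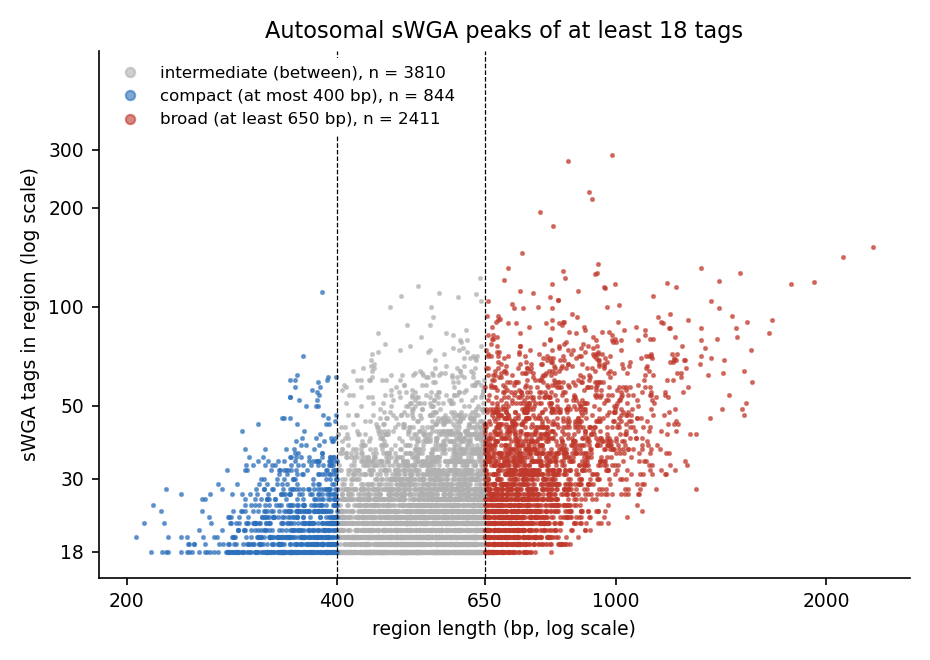
Tags per region (vertical, log scale) against region length in bp (horizontal, log scale) for the 7065 strong autosomal peaks, with 1 point a peak and dashed lines at 400 and 650 bp. Broad peaks reach 2331 bp and 289 tags, while the compact peaks end at 111 tags.

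Length went with tag number. Of the peaks with 18 to 24 tags 19.3% were broad, against 39.25% of those with 25 to 39 tags and 64.0% of those with at least 40. The compact share went the other way, from 17.2% to 9.24% and 3.12%. For this reason classes are also compared below within these 3 bands of tags. Only 153 autosomal peaks reached 650 bp with fewer than 18 tags, and these held 11 to 17.

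At the limits the members did not stand apart from their neighbours in the list. The shortest members with the fewest tags, at chr16:11203179-11203828, chr5:139168920-139169569 and chr8:79686829-79687478, held 18 tags over 650 bp and scored 117 each. The score is the authors' and grows by 10 for each factor of 10 by which the p-value of the peak caller falls. Just outside by length, chr1:177810516-177811164, 1 bp shorter, held 18 tags and scored 117. Just outside by tags, chr1:107576311-107576960 held 17 tags over 650 bp and scored 108.

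The members spread more widely in tag density than in length. The rule cuts length at 650 bp and density is tags over length, so this is no finding. The median density was 40.6 tags per kb, with quartiles of 31.9 and 54.8, and values ran from 21.5 to 325. Compact peaks were denser, at a median of 64.3 tags per kb, and intermediate peaks lay between, at 45.1. These densities follow from the limits that define the classes and are no finding. Within the broad class the density changed little with length: it was 39.3 tags per kb at 650 to 799 bp (1496 peaks), 42.1 at 800 to 999 bp (678 peaks) and 44.9 at 1000 bp or more (237 peaks).

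The densest member was chr3:121848061-121848915, with 278 tags over 855 bp, or 325 tags per kb. It was followed by chr8:19784317-19785305, which held 289 tags over 989 bp (292 tags per kb), the most tags of any member. The region chr12:100537768-100538547 held 194 tags over 780 bp (249 tags per kb). Next came chr11:102190599-102191514 with 223 tags over 916 bp and chr8:20019707-20020631 with 212 over 925 bp. These 5 regions lead the members both by tags and by tags per bp. At the other end chr10:55834050-55835350 held 28 tags over 1301 bp, or 21.5 tags per kb. The next 4 from below had 22.0 to 22.3 tags per kb and lay on chromosomes 13, 17, 10 and 12.

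The longest member, chr5:115939106-115941436, held 152 tags over 2331 bp. The next 3 in length lay close together on chromosome 11, at 3044266 to 3046188 (1923 bp, 119 tags), at 3053731 to 3055510 (1780 bp, 117 tags) and at 3066445 to 3068560 (2116 bp, 142 tags). Next came chr4:137149073-137150746, held 91 tags over 1674 bp. These long members had 54.4 to 67.1 tags per kb, above the median of the class but far below its densest regions. The longest regions and the densest regions were thus different members.

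Each autosome had a strong leader. The broad peak with the most tags on its chromosome held 85 to 289 tags, with a median of 128 over the 19 autosomes. The highest were on chromosomes 8, 3, 11, 12 and 14, and the lowest was chr19:20998178-20999278 with 85 tags over 1101 bp. Chromosome 14 was led by chr14:21036297-21037110, with 176 tags over 814 bp, and chromosome 13 by chr13:66811776-66812510, with 146 tags over 735 bp. Chromosome 2 was led by chr2:51927510-51928211, which held 131 tags and lay 59 bp from another sWGA peak.

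The summit, the point of highest tag overlap, was not used to choose the members. In broad peaks it stood at a median distance of 306 bp from the nearer edge, with quartiles of 238.5 and 349 bp, and 48.8% of summits (46.8 to 50.8) lay between 40% and 60% of the region's length. The offset of the summit from the centre, as a percent of 50% of the length, had a median of 20.6%. It was 14.7% in compact peaks and 29.6% in intermediate ones, so that over the 3 classes the offset did not grow steadily with length. Within the broad class it did, from 17.7% at 650 to 799 bp to 22.8% at 800 to 999 bp and 36.5% at 1000 bp or more. The same central stretch held 68.2% of the summits of compact peaks and 34.3% of those of intermediate peaks.

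Summits in the outer parts of a region, beyond 50% of the way from centre to edge, were found in 405 broad peaks (16.8%; 15.2%, 17.6% and 24.9% in the same 3 bands of length), in 9.76% of intermediate peaks and in 0 of 844 compact peaks. The difference between broad and intermediate peaks was 7.03 percentage points (Newcombe interval 5.29 to 8.82). The absence in compact peaks was largely fixed by geometry: no strong summit stood nearer than 85 bp to an edge, so a region needs more than 340 bp before a summit can reach its outer parts. Measured over the room that remains when 77.5 bp, 50% of the fragment length of 155 bp in the file header, are kept free at each edge, the median offset was 25.7% in broad and 26.6% in compact peaks. By that measure summits past 50% of the room made up 24.3% of broad, 7.82% of compact and 39.9% of intermediate peaks. Broad peaks exceeded compact ones by 16.4 points (13.8 to 18.8) and lay below intermediate ones by 15.6 points (13.3 to 17.9).

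**Figure D2:**
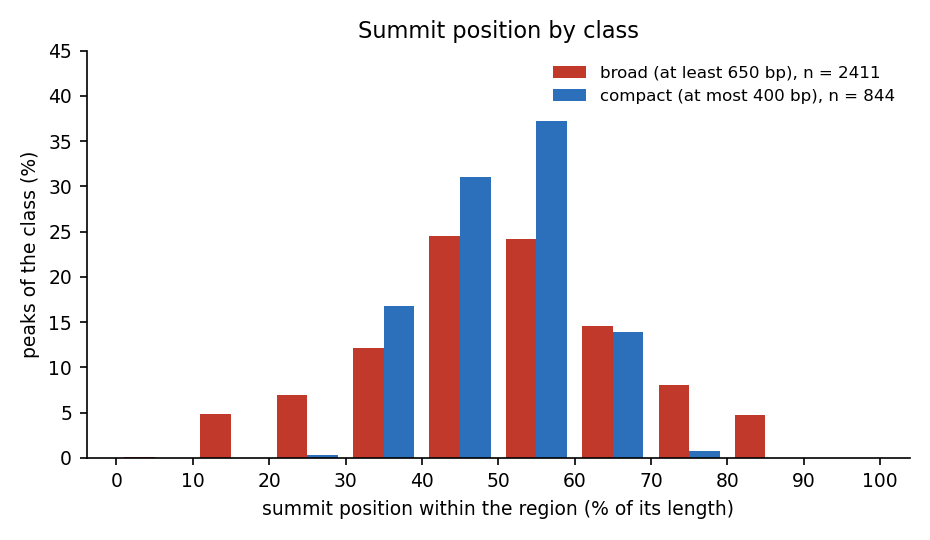
Position of the summit within the region, in bins of 10% of its length (horizontal), and the percent of peaks of each class in each bin (vertical). All but 3 broad summits (n = 2411) lie between 10% and 90% of the length, while compact peaks (n = 844) lie almost wholly between 30% and 70%.

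The summit lay to neither side by preference. It was on the higher-coordinate side of the centre in 51.3% of broad peaks (49.3 to 53.3) and on the lower side in 48.4% (46.4 to 50.4). The members with the summit nearest to an edge were weak ones. In chr4:146882218-146883015 it stood 86 bp from the edge of a 798 bp region of 20 tags. In chr2:164281962-164282762 it stood 88 bp from the edge of an 801 bp region of 20 tags. The other 3, on chromosomes 5, 9 and 1, held 23, 25 and 21 tags. Strong members could be off centre too: in chr8:20019707-20020631 the summit stood 219 bp from the nearer edge, an offset of 52.7%.

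The height of the summit shows how far a region's tags lie on top of each other. The authors' fold is the number of tags stacked at the summit over the background, and where the background was the genome-wide expectation of 0.508 tags per fragment length the height can be read from it in whole tags. This was so for 1836 of the 2411 broad peaks. Their summits stacked a median of 16 tags, which was 50.9% of the region's tags, with quartiles of 42.9% and 61.3%. In the 667 compact peaks with that background the summit stacked 19 tags, or 88.9%, although compact peaks held fewer tags in all. Since a compact region offers little room outside a fragment that covers its summit, this share is bound to length and is given as a description of shape.

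At matched tag numbers the summits of broad peaks were lower. With 18 to 24 tags the median share at the summit was 47.6% in broad and 88.9% in compact peaks. With 25 to 39 tags it was 50% and 87.9%, and with at least 40 tags it was 55.3% and 88.7%. The authors' fold followed: its median was 19.7 against 33.5, 27.55 against 45.3 and 47.8 against 68.9 in the same 3 bands, over all peaks of each class. Set against the mean height of its own region, however, the summit of a broad peak rose higher, 2.55 times the mean against 1.91 in compact peaks. That ratio cannot exceed the region's length in fragments, which limits it more in short regions.

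**Figure D3:**
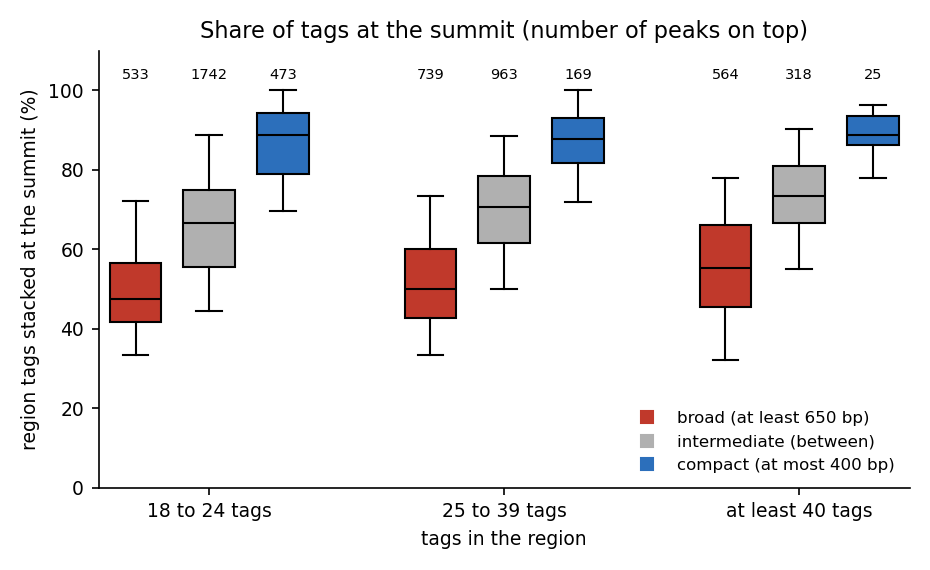
Percent of a region's tags stacked at its summit (vertical) in 3 bands of tags per region (horizontal), for peaks with the genome-wide background. Boxes give median and quartiles, whiskers the 5th and 95th percentiles and the figures on top the number of peaks; broad peaks have medians of 47.6% to 55.3% and compact peaks of 87.9% to 88.9%.

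The share of tags at the summit, which is bound to length, was smallest in long regions. The median share at the summit was 54.5% at 650 to 799 bp, 45.8% at 800 to 999 bp and 37.8% at 1000 bp or more. In the longest member, chr5:115939106-115941436, 37 of 152 tags (24.3%) stacked at the summit, and in chr11:3053731-3055510 it was 21 of 117 (17.9%). The member with the highest fold, chr8:20019707-20020631, stacked 167 of 212 tags (78.8%) at a fold of 329. In chr11:102190599-102191514 the summit held 144 of 223 tags (64.6%) at a fold of 283. The other 3 members with the highest folds, chr15:76437749-76438589, chr17:37215621-37216467 and chr10:79711469-79712466, stacked 70.1% to 75% of their tags. The compact peak with the most tags, chr4:153349020-153349400, stacked 99 of 111 tags (89.2%) at a fold of 195.

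Broad peaks had other peaks near them more often than compact peaks did. Distances were taken from edge to edge, so that the length of the region does not enter. Another sWGA peak lay within 5 kb of 859 broad peaks, or 35.6% (33.7 to 37.6), and of 29.4% of compact peaks (26.3 to 32.6). Over all autosomal peaks the share was 27.3%. The difference between broad and compact peaks was 6.24 points (Newcombe interval 2.56 to 9.79), and that between broad and intermediate peaks was 4.71 points (2.31 to 7.12). Within 1 kb the shares were 16.9% and 10.9%, a difference of 5.98 points (3.28 to 8.45).

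The excess was in the same direction in each band of tags but was not separable from 0 there at 5 kb. It was 4.88 points (-0.33 to 10.04) with 18 to 24 tags, 5.21 (-1.70 to 11.6) with 25 to 39 and 6.78 (-9.22 to 19.5) with at least 40, where only 39 compact peaks remain. Within 1 kb it was 4.98 points (1.12 to 8.78), 5.40 (0.244 to 9.56) and 8.39 (-5.17 to 15.2). Within 10 kb the excess over all tags was 4.76 points (0.848 to 8.62), and with 25 to 39 tags it was -0.40 points. Counting only neighbours of at least 18 tags, the shares were 13.65% and 11.02% and the difference of 2.63 points had an interval that touched 0 (-0.01 to 5.03). Within the broad class a neighbour within 5 kb was found for 33.8% (31.4 to 36.3) of peaks of 650 to 799 bp, 37.2% (33.5 to 40.9) at 800 to 999 bp and 42.6% (36.2 to 49.2) at 1000 bp or more.

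**Figure D4:**
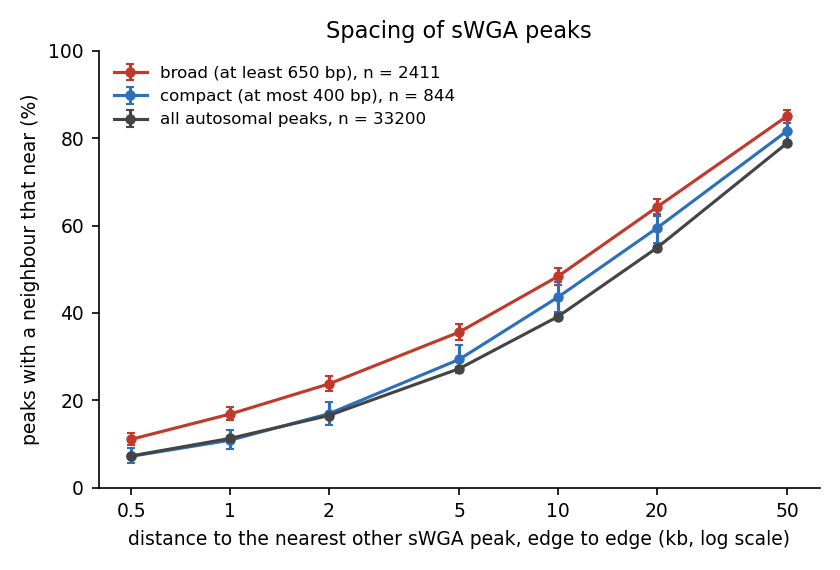
Percent of peaks (vertical) whose nearest other sWGA peak lies within the distance on the horizontal axis (kb, log scale), for broad, compact and all autosomal peaks, with exact 95% intervals as bars. At 1 kb the broad peaks stand at 16.9%, the compact peaks at 10.9% and all autosomal peaks at 11.3%.

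The near neighbours were mostly weak, as were autosomal peaks at large. Of the 859 broad peaks with a neighbour within 5 kb, 598 (69.6%) had a nearest neighbour of fewer than 18 tags, 112 (13.0%) had another broad peak and 25 (2.91%) a compact one, and the median neighbour held 12 tags. Over all autosomal peaks 21.3% held at least 18 tags, 7.26% were broad and the median held 11 tags. From 1 broad peak to the next the median gap was 171 kb (158 to 189, from order statistics). Another broad peak lay within 50 kb of 589 members (24.4%) and within 1 kb of 80 (3.32%). Some adjoining regions were all but continuous. At chr8:128188805-128189644 (25 tags) the next broad region, at 128189646 to 128190372 (25 tags), began after a gap of 1 bp. The pair at chr5:15195261-15195969 (24 tags) and 15195973 to 15196641 (23 tags) had a gap of 3 bp. The pair at chr16:25523503-25524157 (18 tags) and 25524180 to 25524840 (21 tags) had a gap of 22 bp. Gaps under 100 bp separated 8 such pairs.

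Joined over gaps of up to 10 kb, 1245 broad peaks (51.6%) stood alone. So did 56.4% of compact, 56.7% of intermediate and 60.8% of all autosomal peaks. Groups of at least 5 peaks held 142 broad peaks (5.89%). In compact peaks the share in such groups was 3.20%, over all autosomal peaks it was 3.33%, and the difference between broad and compact peaks was 2.69 points (1.03 to 4.11). Within the bands it was 2.19 (-0.31 to 4.69) with 18 to 24 tags, 3.84 (0.868 to 5.80) with 25 to 39 and 6.01 (-3.08 to 7.88) with at least 40.

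The broad peaks fell into 1274 windows of 1 Mb, of which 658 held 1 broad peak and 61 held at least 5. These 61 windows contained 368 members (15.3%). The windows with the most members held many other peaks as well, and whether they hold more broad peaks than their number of peaks would give was not tested. The fullest window, at 19 Mb of chromosome 8, held 11 broad peaks among 16 strong peaks and 43 peaks in all, with 771 tags in the broad ones between 19720450 and 19990830, and among them the member with the most tags. A window at 146 Mb of chromosome 4 held 10 broad peaks among 15 strong ones and 44 in all, with 353 tags, and the window before it, at 145 Mb, held 8 with 307. Chromosome 7 had 9 broad peaks among 20 strong ones and 50 in all, with 407 tags between 52104025 and 52973652, and chromosome 10 had 9 among 13 and 39, with 323 tags between 127058269 and 127986821. Windows with 8 members were also found on chromosome 10 from 79131966, on chromosome 7 from 30066489, on chromosome 11 from 116029336 and on chromosome 13 from 23529786.

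In the window at the start of chromosome 11 lengths ran from 703 to 2116 bp and all members lay near control tags. Between 3023630 and 3166721 this window held 8 broad peaks with 667 tags, and the 5 strongest of them, with 61 to 142 tags, were 1241 to 2116 bp long. Their scores ran from 59.2 to 657, and all 8 had control tags near them. In the chromosome 8 window 8 of 11 members had control tags near, lengths ran from 761 to 1488 bp and scores from 71.0 to 2515. The chromosome 11 window was singled out after its values were seen, and control tags were not counted in the other windows.

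By chromosome the broad share of strong peaks was nearly even. It ran from 27.5% on chromosome 9 (100 of 363 peaks) to 39.2% on chromosome 11 (195 of 497). Against all other autosomes chromosome 11 was higher by 5.50 points (1.15 to 10.0007) and chromosome 9 lower, at -6.93 points (-11.4 to -1.99), and for the other 17 autosomes the interval included 0. Chance alone puts about 1 in 20 such intervals off 0. Neither call held when at least 25 tags were required: the difference was then 2.24 points (-3.73 to 8.22) for chromosome 11 and -4.44 points (-11.8 to 3.19) for chromosome 9. With a minimum of 800 bp chromosome 11 kept its call, at 3.82 points (0.701 to 7.42), chromosome 9 lost it and chromosome 10 was called, at 5.07 points (1.495 to 9.24). Both calls of chromosomes 9 and 11 held with 1 peak taken per group of neighbours. Chromosome X, which the rule leaves out, had 48 broad peaks among 147 strong ones (32.7%, 25.2 to 40.9).

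**Figure D5:**
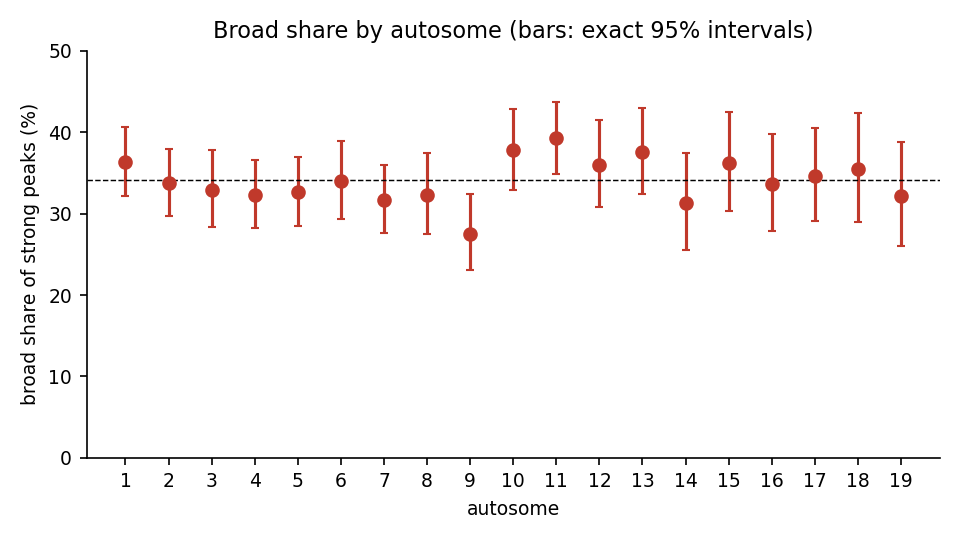
Broad share of strong peaks (vertical, percent) on each autosome (horizontal), with exact 95% intervals; the dashed line is the share over all autosomes, 34.1%. Shares run from 27.5% on chromosome 9 to 39.2% on chromosome 11.

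The number of broad peaks per Mb varied more, from 0.616 on chromosome 14 (77 peaks) to 1.60 on chromosome 11 (195 peaks), with the position of the last listed region taken as the length. Strong peaks of all lengths differed in number as well, with 246 on chromosome 14 and 497 on chromosome 11, so this spread is not particular to broad peaks. The broad peaks of single autosomes had similar sizes: the median held 30 to 34 tags and was 738.5 to 785 bp long on each.

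Control tags lay near a minority of the members. Where no control tag lies within 10 kb the caller uses the genome-wide expectation, and each control tag counts as 78.2 sWGA tags. By the authors' folds 575 broad peaks (23.8%) had a local background, against 21.0% of compact peaks and 8.71% of all autosomal peaks. The difference between broad and compact peaks was 2.88 points (-0.44 to 6.02). Score and fold together gave the number of control tags for 2407 of the 2411 members. There were none for 1830, 1 within 10 kb for 461, 2 for 93, and 3 to 6 for 18. A control tag inside the region itself was read for 5.

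The share with a local background rose with the number of tags in the broad class, from 17.7% (14.9 to 20.9) with 18 to 24 tags to 23.3% (20.7 to 26.1) with 25 to 39 and 29.4% (26.3 to 32.7) with at least 40. Compact peaks had 18.2%, 25.6% and 35.9% in the same bands, so that at matched tags the broad class was not above the compact one, and the interval of the difference included 0 in each band. Intermediate peaks had 20.7% over all tags, lower than broad peaks by 3.19 points (1.08 to 5.34), and 18.4%, 23.9% and 22.6% (18.7 to 27.0) in the bands. The calling limit acts on these shares. With 1 control tag within 10 kb a region of 650 bp needs 17 tags to be listed and one of 1000 bp needs 22, and a region of 18 tags is no longer listed beyond 735 bp. Of the 40 members with at least 100 tags 19 (47.5%, 31.5 to 63.9) had a control tag near. Some of these also scored close to the listing limit of 50, such as chr11:77794894-77796296 with 120 tags and a score of 53.5.

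The 5 members with a control tag inside the region were singled out after their values were seen, and 3 of them were among the 6 members with the most tags. The calling limit largely fixed that these members hold many tags, so this is no finding. A control tag inside a region sets an expectation of 78.2 tags, at which a region needs 119 tags to be listed. Of the 5 members, chr3:121848061-121848915 had 278 tags at a fold of 14.8 and a score of 684. The region chr12:100537768-100538547 had 194 tags at a fold of 9.13 and a score of 280, and chr14:21036297-21037110 had 176 tags at a fold of 9.67 and a score of 211. The other members were chr11:3066445-3068560, with 142 tags and a score of 105, and chr11:77794894-77796296, with 120 tags and a score of 53.5. By contrast chr11:102190599-102191514, with 223 tags and no control tag within 10 kb, had a score of 3100, the value at which the score is capped. Members with many tags thus stood far apart in the authors' score. No region of the control list overlapped a broad peak. Each list was called on its own library against the other library, so the calling largely fixed this absence and it is no finding. A region of the control list lay within 10 kb of 9 members (0.373%), against 0.355% of compact and 0.352% of all autosomal peaks.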

How the data were processed

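One library was sequenced for the sWGA second step and one for the control second step, and their lists of regions were used as deposited. Regions were called by the authors with MACS 1.4.1 on 1 library against the other, at a p cutoff of 1e-05 (a score of 50) and a fragment length of 155 bp, per the file headers. Coordinates are mm9 in the submitters' processing notes. The aligner is not given in the sources used here. Deposited tag counts are whole tags per region, without scaling. The score as deposited is the negative log10 of the p-value, multiplied by 10. As deposited, fold is the ratio of the summit's height to the background and FDR a percent obtained with the libraries exchanged. After filtering 36.7% of sWGA tags and 21.4% of control tags remained, per the file headers. The filter was unlike: up to 2 tags per position were kept for sWGA and 1 for the control. The control was scaled up 78.2 times, per the file headers, so 1 control tag moves a score by much.

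Shares have exact (Clopper-Pearson) intervals and differences Newcombe intervals, at 95%, and a difference was called where its interval excluded 0. A fold counted as genome-wide where it was whole tags over 0.508 within 0.01. Control tags near a region were read as the whole number whose Poisson rate gave the deposited score within 20% and a fold of whole tags. This reading was tried on simulated regions of at least 40 tags with none or a few control tags within 10 kb. Regions with fewer tags, or with a control tag within 1 kb or inside the region, were not simulated. The Newcombe intervals were tried on simulated shares. Named regions were the extremes of the class by tags, length, density, fold and summit position, and the leader of each autosome. The members and lists were chosen with earlier results of these data known. Gene starts and base composition, which had been planned, were not analysed, since no mm9 reference was used. Python 3.11.15, numpy 2.4.6, scipy 1.17.1 and pandas 2.3.3 were used.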

Additional observations from a re-analysis of the deposited data

How the results depend on the processing

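No paired analysis was possible because there was 1 library for each second step. Nor was there a replicate to leave out. The comparisons of gene starts and of base composition were not run. The number of broad peaks was 915 with a minimum of 800 bp and 1251 with a score of at least 200. Their share of strong peaks was 12.95% with a minimum of 800 bp, 47.6% with at least 25 tags and 39.6% with a score of at least 200. The median summit offset of broad less compact peaks, 5.92 points, was 8.35 with at least 25 tags, 11.1 with 800 bp and 8.63 with a score of at least 200. In bands of 18 to 24, 25 to 39 and at least 40 tags it was 0.888 (-1.79 to 3.57), 7.62 and 8.72, so that the interval included 0 in the first band. As a distance to the nearer edge the difference was 159 bp, and over the reachable room, added after seeing the data, it was -0.89 points (-2.88 to 1.10), so that no difference remained to be called. The share of tags at the summit, -38.0 points, was -35.6 with at least 25 tags, -44.4 with 800 bp and -34.7 with a score of at least 200. It was -41.3 with 18 to 24 and -33.4 with at least 40 tags. As summit over mean height, also added after seeing the data, it reversed to 0.64 in favour of broad peaks, because that ratio is the same share multiplied by the length in fragments. The excess of neighbours kept its direction under all 12 alternatives. Its interval came to include 0 in 5 of them, at 6.17 points with at least 25 tags, 4.88, 5.21 and 6.78 in the 3 bands and 2.63 for neighbours of at least 18 tags. These 5 compared fewer peaks or counted fewer neighbours, and why their intervals included 0 was not tested. Without chromosomes 8 and 11 the excess was 5.50 points (1.56 to 9.29). The difference in local background came off 0 at 5.59 points with 800 bp and at 4.33 with a score of at least 200, and the cause was not tested. The number of autosomes called was 1 with at least 25 tags (chromosome 13) and 1 with a minimum of 600 bp (chromosome 11), an alternative added after seeing the data. The outer summit share differed from that of compact peaks under all 8 alternatives, but in 7 of them the compact share of 0 was largely set by geometry, and against intermediate peaks the difference went from 7.03 to -15.6 points over the reachable room. The control held 78351 tags, and single control tags set the background.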
